A study of Mus musculus with 10 samples.

Results

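The genes that encode the proteasome were followed in germinal vesicle oocytes (fully grown oocytes arrested before the first meiotic division) that lack the histone methyltransferase Setdb1. Members were the gene symbols that begin with Psma, Psmb, Psmc, Psmd, Psme, Psmf or Psmg followed by a digit, and 50 of the 24453 symbols in the deposited table fitted. They were sorted into 14 subunits of the 20S core (7 of the alpha ring and 7 of the beta ring), 5 tissue-specific core subunits, 17 subunits of the base and lid, and 13 activators, inhibitors or chaperones. The pattern also took Psmc3ip, which encodes a meiotic recombination protein and no proteasome subunit, so it is counted among the 50 and described apart. For each symbol the row with the highest mean level stood for the gene, and 9 of the 50 symbols had several rows.

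Oocytes came from C57Bl/6J mice of 3 genotypes. The mutants were Setdb1 F/-; ZP3-cre (4 mice), in which the 1 conditional allele that remains is deleted by Cre recombinase under the promoter of the zona pellucida gene Zp3, which is active in growing oocytes. The Cre controls were Setdb1 F/+; ZP3-cre (4 mice), which carry Cre and keep a wild-type allele, and the F/- controls were Setdb1 F/- (2 mice), which carry the null allele of the mutants without Cre. Each library held RNA of 1 pool of 16 oocytes stripped of cumulus cells, taken from 1 mouse in medium with 2.5 mM milrinone, a phosphodiesterase inhibitor that keeps oocytes in meiotic arrest, and the ages of the mice are not in the labels.

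The proteasome degrades proteins that carry ubiquitin chains. Its core particle is a barrel of alpha rings, which gate the entrance, around beta rings, whose subunits Psmb5, Psmb6 and Psmb7 cut peptide bonds. The regulatory particle caps the barrel: its base holds the ATPases (Psmc) that unfold substrates, and its lid removes ubiquitin. Oocytes rely on it to degrade cyclin B and securin as meiosis proceeds. In many mammalian cells NFE2L1 (NRF1) raises the transcription of proteasome genes together when the proteasome is impaired, through antioxidant response elements.

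The promoter stretches that follow are shown because a shared promoter element is the textbook basis for joint regulation of these genes. The 6 members that hold the core of the antioxidant response element had estimates in both directions against all controls. Those of Psmb5, Psmb6, Psmd9 and Psmd12 were above 0 and those of Psme4 and Psmc6 below 0, beside 52.7% of all tested genes above 0. None of the 6 was called, beside 5.33% of all tested genes. RefSeq promoters (GRCm38.p6) were found for 42 of the 50 members, and the window around each start site (250 bases before it to 50 after it) was searched on both strands. The core of the antioxidant response element, TGACNNNGC, was in 6 of 42 member windows (14.3%), in 12.5% of all 27018 gene windows and in 14.8% of the 9002 windows of tested genes. The CCAAT box, the site of NF-Y, was in 15 of 42 member windows (35.7%), in 37.9% of all gene windows and in 39.5% of those of tested genes. None of the 6 windows with TGACNNNGC also held CCAAT, so no matches of the motifs overlapped in the members. By these letters the members' windows held neither element much more often than other genes did. Each stretch below runs 5′ to 3′ on the gene's strand from 150 bases before to 30 bases after the start site, and capitals mark TGACNNNGC or its reverse complement.
Psmb5 (chr14:54617966-54618145, minus strand): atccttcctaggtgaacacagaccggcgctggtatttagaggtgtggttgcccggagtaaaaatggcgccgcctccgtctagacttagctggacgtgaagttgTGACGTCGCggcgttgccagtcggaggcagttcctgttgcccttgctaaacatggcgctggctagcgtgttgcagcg
Psmb6 (chr11:70525207-70525386, plus strand): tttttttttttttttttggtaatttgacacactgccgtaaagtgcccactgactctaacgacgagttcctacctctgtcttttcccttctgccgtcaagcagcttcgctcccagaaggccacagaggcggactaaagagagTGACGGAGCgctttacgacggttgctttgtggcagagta
Psmd9 (chr5:123228040-123228219, plus strand): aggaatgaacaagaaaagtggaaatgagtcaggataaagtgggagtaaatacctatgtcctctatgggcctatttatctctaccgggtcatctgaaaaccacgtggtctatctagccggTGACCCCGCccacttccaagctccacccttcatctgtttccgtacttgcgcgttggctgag
Psme4 (chr11:30771625-30771804, plus strand): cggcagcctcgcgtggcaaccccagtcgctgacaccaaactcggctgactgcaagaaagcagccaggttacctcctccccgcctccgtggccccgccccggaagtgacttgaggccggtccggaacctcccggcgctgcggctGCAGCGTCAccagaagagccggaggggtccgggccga
Psmd1 (chr1:86064469-86064648, plus strand): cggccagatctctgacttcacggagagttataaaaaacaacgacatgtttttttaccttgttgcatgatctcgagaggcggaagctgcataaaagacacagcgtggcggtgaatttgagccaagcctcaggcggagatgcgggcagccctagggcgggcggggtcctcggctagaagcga
The match began 47 bases before the start site in Psmb5, 31 bases before it in Psmd9 and 9 bases before it in Psmb6, and in Psme4 it began 7 bases before the start site, on the opposite strand. In Psmc6 and Psmd12 it began 227 and 247 bases before the start site, also on the opposite strand. The Psmd1 window, shown because Psmd1 passed the test in 1 comparison, held neither motif.

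Setdb1 itself checked the labels, at 4.06, 2.55, 3.32 and 1.31 RPKM in the mutants, against 25.1 to 52.5 RPKM in the Cre controls and 19.9 and 26.3 RPKM in the F/- controls. The difference in log2(RPKM + 0.5) was -3.20, with an exact two-sided permutation p of 0.0048, the smallest that 210 splits of 10 libraries allow. Read totals, estimated from the spacing of low values, were about 45.9e6 to 72.7e6 reads per library. RPKM, reads per kilobase of transcript per 1e6 reads, were compared as log2(RPKM + 0.5) with limma over the 11338 genes that averaged 0.5 RPKM or more, and a gene was called at a Benjamini-Hochberg adjusted p under 0.05. This scale understates changes of low genes. In pooled RNA, fewer oocytes that express a gene and less of its RNA per oocyte cannot be told apart.

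Levels of the genes of the constitutive core ran from 0.292 RPKM for Psma3 to 139 RPKM for Psma7, while those of the immune and tissue-specific core subunits were near 0. Of the 50 members, 42 reached the mean of 0.5 RPKM and were tested, 41 of them proteasome genes and 1 Psmc3ip. The 8 others were Psma3, Psma8, Psmb8, Psmb9, Psmb10, Psmb11, Psme1 and Psmg2. The median member had a mean of 18.6 RPKM over the 10 libraries, and the median of all tested genes was 6.06 RPKM.

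In the alpha ring, Psma7 had the highest level of all members, with a mean of 139 RPKM, above that of 98.4% of tested genes. It stood at 155, 198, 164 and 119 RPKM in the mutants, at 127, 103, 144 and 129 RPKM in the Cre controls, and at 133 and 118 RPKM in the F/- controls. The lowest alpha gene was Psma3, at 0.195 to 0.340 RPKM in the mutants, 0.261 to 0.448 RPKM in the Cre controls and 0.230 and 0.256 RPKM in the F/- controls. Each alpha subunit is needed in equal number in the ring, yet the listed levels of these genes spanned that range. In the beta ring the means ran from 4.60 RPKM for Psmb3 to 106 RPKM for Psmb2.

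Of the catalytic subunits, Psmb7, which carries the trypsin-like site, had a mean of 61.0 RPKM. Psmb6, with the caspase-like site, had a mean of 44.2 RPKM, and Psmb5, with the chymotrypsin-like site, had a mean of 9.87 RPKM. Their immunoproteasome counterparts, which replace them after interferon stimulation, were near 0. Psmb8 was listed at 0 in 9 of 10 libraries and at 0.0532 RPKM in Cre control replicate 1. Psmb9 was listed at 0 in 9 of 10 libraries and at 0.198 RPKM in Cre control replicate 4. Psmb10 ranged from 0 to 0.206 RPKM in the mutants, from 0.181 to 0.414 RPKM in the Cre controls, and stood at 0.103 and 0 RPKM in the F/- controls. At the estimated totals, 3 reads give 0.0206 to 0.0327 RPKM for a transcript of 2 kb, so the nonzero values of Psmb8 rest on few reads. The testis subunit Psma8 did not exceed 0.0104 RPKM in any library. The thymus subunit Psmb11 ranged from 0.0168 to 0.237 RPKM in the mutants, from 0.102 to 0.156 RPKM in the Cre controls, and stood at 0.205 and 0.0713 RPKM in the F/- controls.

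**Figure D1:**
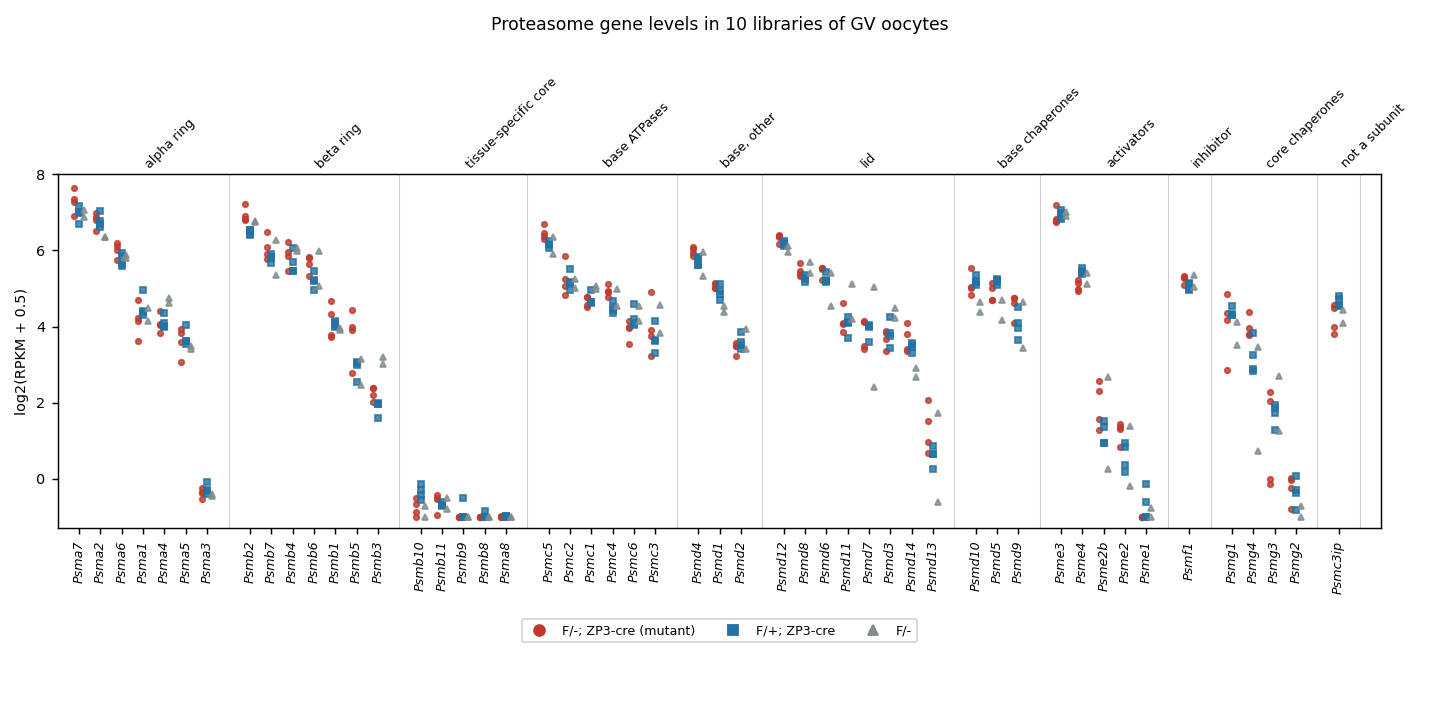
Level of each of the 50 genes in each library, as log2(RPKM + 0.5) on the vertical axis, grouped by role; circles are mutants, squares Cre controls and triangles F/- controls. The tissue-specific core subunits lie at the bottom of the scale in every library.

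The base ATPases lay closer together, from 15.3 RPKM for Psmc3 to 77.6 RPKM for Psmc5. In the rest of the base, the ubiquitin receptor Psmd4 had a mean of 56.1 RPKM, and the scaffold subunits Psmd1 and Psmd2 had means of 29.4 and 11.3 RPKM. Lid genes ran from 1.57 RPKM for Psmd13 to 74.0 RPKM for Psmd12, and Psmd14, the deubiquitinase of the lid, had a mean of 10.5 RPKM. Among the activators, Psme3, which encodes the nuclear activator PA28 gamma, had a mean of 121 RPKM, second to Psma7, and Psme4, which encodes PA200, had a mean of 38.1 RPKM. The interferon-inducible PA28 alpha gene, Psme1, was listed at 0 in all 4 mutants, and in the Cre controls it was listed at 0, 0.400, 0 and 0.148 RPKM. It was at 0.0891 and 0 RPKM in the F/- controls. The inhibitor gene Psmf1 had a mean of 35.3 RPKM.

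The chaperones of base assembly, Psmd10, Psmd5 and Psmd9, had means of 32.7, 30.6 and 19.4 RPKM. Those of core assembly ran from 0.270 RPKM for Psmg2 to 18.1 RPKM for Psmg1. Psmg2, whose protein pairs with that of Psmg1, stood at 0.0805 to 0.519 RPKM in the mutants, 0.0668 to 0.548 RPKM in the Cre controls and 0.103 and 0 RPKM in the F/- controls.

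Several of the low members share long stretches of sequence with other genes, many of them listed only as predicted genes. For each member's transcript, every window of 50 bases was looked up in the transcripts of all other genes (GENCODE M21, GRCm38). In 6 members at least 50% of windows also occurred in a gene at another locus: Psma3 (78.5%), Psme2b (69.3%), Psme2 (62.1%), Psmb3 (55.8%), Psma5 (54.5%) and Psmb5 (50.0%). Their mean levels ran from 0.292 to 12 RPKM with a median of 3.71 RPKM. In 34 members under 1% of windows did, and these had a median of 27.8 RPKM, with 20 of them at 20 RPKM or more. Psmd13 (0.67% of windows) and Psmg2 (0.0%) were low without such sequence. How the authors treated reads with several matches is not stated, so the levels of the 6 genes are uncertain, and the part of shared sequence in them was not tested. Psme2 and Psme2b share windows with each other and cannot be separated well. The libraries do not mark strand, so reads from exons that overlap another gene cannot be told apart from that gene's. Examples are Psmb7 with Nek6, Psmb9 with Tap1, Psmc3ip with Mlx and Psmd13 with Sirt3.

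**Figure D2:**
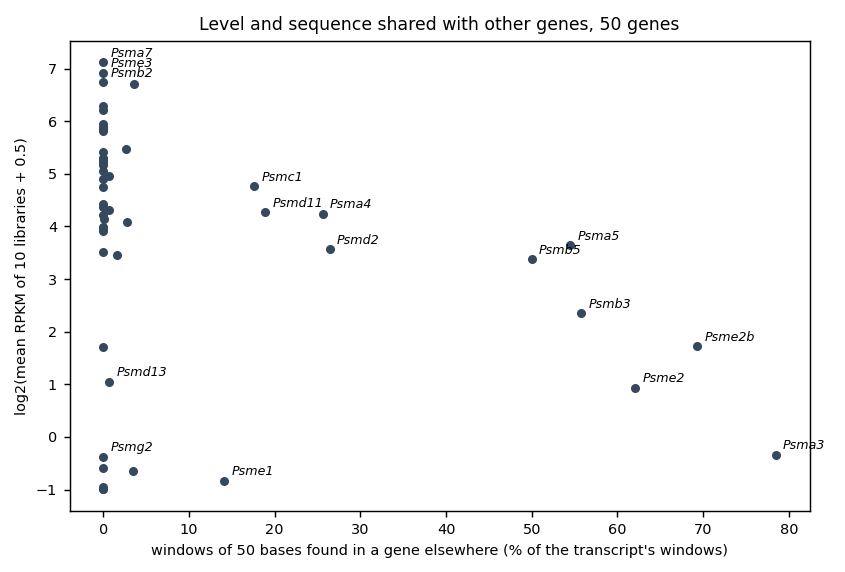
Each of the 50 genes by the share of its transcript's windows of 50 bases that also occur in a gene at another locus (horizontal axis, percent) and by log2 of its mean RPKM over 10 libraries plus 0.5 (vertical axis). The 6 genes at 50% or more all lie at or below 12 RPKM, and genes near 0% span the whole range of levels.

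Loss of Setdb1 was not accompanied by a called change in any of the proteasome genes when the mutants were set against all 6 controls. With limma 0 of 42 tested members passed an adjusted p of 0.05, where 5.33% of all tested genes did. At an unadjusted p under 0.05 there were 11 members (26.2%), where 19.8% of all tested genes passed. Of these 9 were higher and 2 lower in the mutants, beside 11.1% and 8.63% of all tested genes. The exact permutation test gave 7 members at an unadjusted p under 0.05 (16.7%, beside 19.6% of all tested genes) and 0 after adjustment. The estimate was above 0 in 26 of 42 members (61.9%) and in 52.7% of all tested genes. Only Psmb2 had all 4 mutants on one side of all 6 controls (1 of 42 members, 2.38%), and 8.18% of all tested genes were separated in this way (4.62% higher and 3.56% lower in the mutants).

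The class medians lay close together. The median log2 difference, mutants minus all controls, was 0.155 over the 13 tested core genes, 0.102 over the 17 base and lid genes, and 0.132 over the 11 tested activators, inhibitor and chaperones. Over all members it was 0.117, and over all tested genes 0.0251. The estimate was above 0 in 9 of 13 core genes, in 11 of 17 base and lid genes, and in 6 of 11 of the other class. Within the core, the beta ring had a median of 0.262 with 6 of 7 genes above 0, and the alpha ring one of 0.0715 with 3 of 6 above 0. When array weights estimated from the data were used, the core median was 0.321.

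Set against the Cre controls alone, 1 of 42 members was called (background 4.89%), the beta ring gene Psmb2, which was higher in the mutants. At an unadjusted p under 0.05 there were 8 members (19.0%), beside 19.2% of all tested genes. Of these 6 were higher and 2, Psme4 and Psmc3ip, lower in the mutants, beside 10.3% and 8.92% of all tested genes. Groups did not overlap for 6 members (14.3%), with Psmb2, Psmb3, Psmc5, Psmc4 and Psmd4 higher and Psme4 lower in all mutants, beside 17.3% of all tested genes (8.86% higher and 8.45% lower). The estimate was above 0 in 27 of 42 members (64.3%) and in 50% of all tested genes. The median estimate was 0.37 in the beta ring, -0.0078 in the alpha ring, 0.17 in the base and lid and -0.05 in the activators, inhibitor and chaperones, and the median over all tested genes was 5.22e-05. With median centring, quantile normalization or equal sums in every library, 1 member was called as well, but it was Psme4, lower in the mutants, and not Psmb2. These comparisons share the 4 mutants and, with that against all controls, the control libraries. Set against the F/- controls alone, 1 of 42 members was called (background 4.84%), the base scaffold gene Psmd1, which was higher in the mutants. There 13 members (31.0%) had an unadjusted p under 0.05, beside 21.5% of all tested genes, with 9 higher (background 12.9%) and 4 lower (background 8.57%) in the mutants. Groups did not overlap for 11 members (26.2%), beside 22.8% of all tested genes, with 7 higher (background 13.7%) and 4 lower (background 9.18%). The estimate was above 0 in 27 of 42 members (64.3%) and in 55.5% of all tested genes. Against the F/- controls the median estimate was 0.17 in the beta ring, 0.169 in the alpha ring and 0.109 in the base and lid. It was 0.457 in the activators, inhibitor and chaperones and 0.0674 over all tested genes. The order of the classes thus differed between the control groups, and this difference was not tested.

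**Figure D3:**
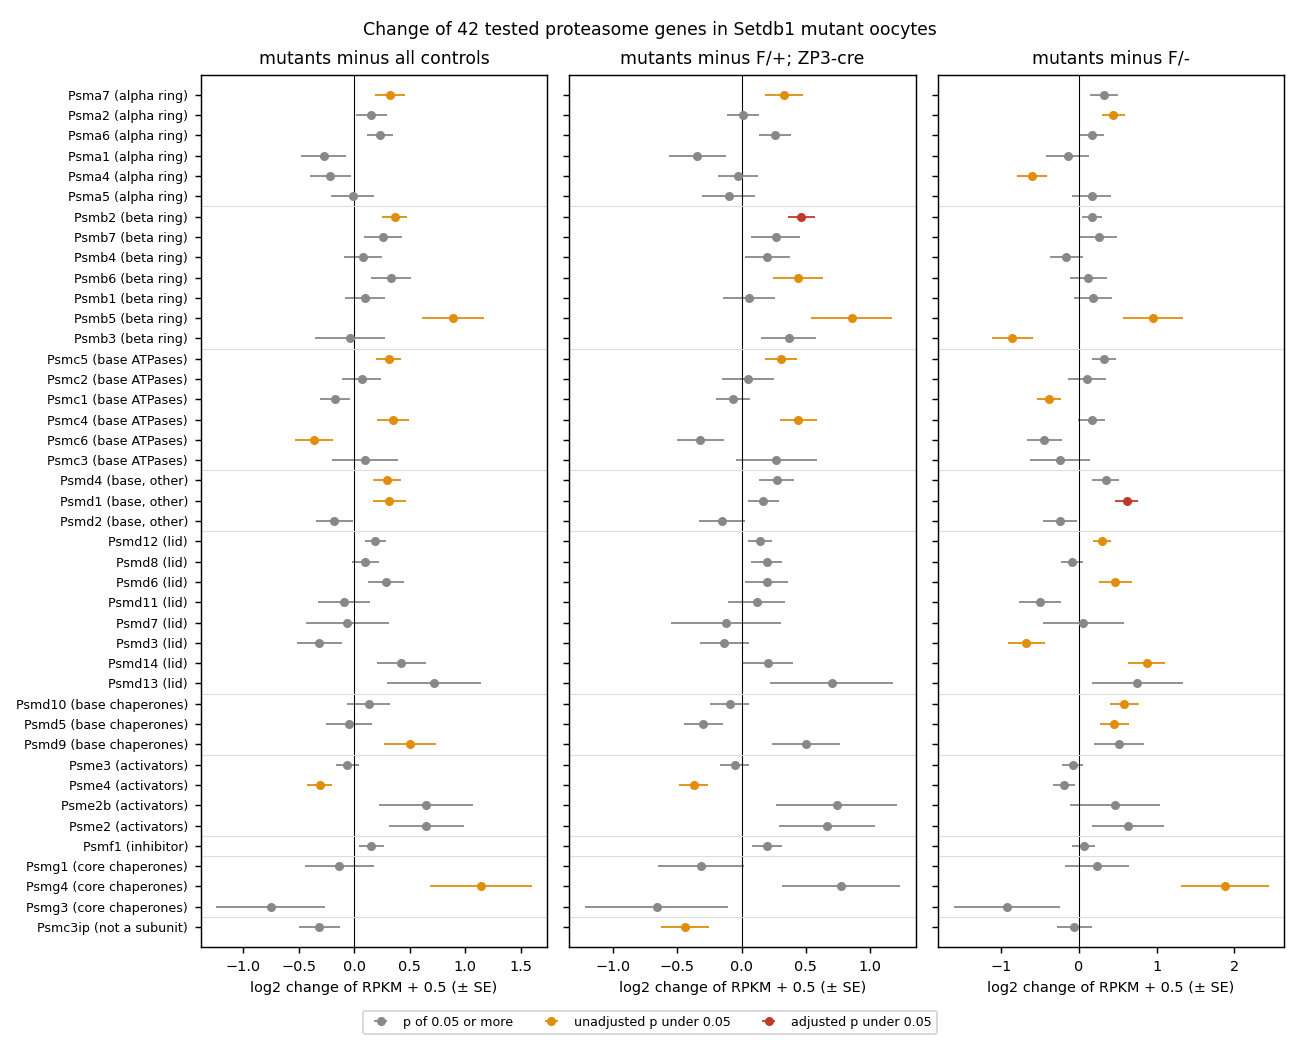
Difference in log2(RPKM + 0.5) of the 42 tested genes (horizontal axis, with the limma standard error), mutants minus all controls, minus the Cre controls and minus the F/- controls; colour marks unadjusted and adjusted p under 0.05. Psmb2 in the middle panel and Psmd1 in the right panel are the called genes, and the widest intervals belong to Psmg3, Psmg4, Psmd13 and Psme2b.

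Psmb2 (chr4:126677630-126709714, plus strand, GRCm38), a beta ring subunit without a catalytic site, had 110, 114, 120 and 148 RPKM in the mutants. It had 86.3, 92.0, 83.7 and 91.9 RPKM in the Cre controls, and 109 and 108 RPKM in the F/- controls. All 4 mutants lay above all 6 controls, although the lowest mutant and the F/- controls were nearly level. The mean was 123 ± 17.4 RPKM in the mutants, 88.5 ± 4.13 RPKM in the Cre controls and 109 ± 1.08 RPKM in the F/- controls (SD, n = 4, 4 and 2). The log2 difference was 0.46 ± 0.10 (SE) against the Cre controls (limma adjusted p = 0.025), 0.17 ± 0.13 against the F/- controls (limma adjusted p = 0.48) and 0.37 ± 0.11 against all controls (limma adjusted p = 0.084). The call against the Cre controls was lost in 10 of 26 alternatives, with an adjusted p of 0.051 without mutant replicate 3, 0.057 under median centring and 0.062 to 0.094 without any 1 of the Cre controls.

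Psmb5 had the largest estimate of the beta ring. Its levels were 15.2, 21.0, 14.4 and 6.31 RPKM in the mutants, 7.49, 7.69, 5.34 and 7.83 RPKM in the Cre controls, and 8.4 and 5.04 RPKM in the F/- controls. Mutant replicates 1 to 3 lay above every control, and replicate 4 lay within the range of the controls. The log2 difference against all controls was 0.89 ± 0.28 (SE) and did not pass the test (limma adjusted p = 0.087). Psmb5 stayed uncalled in 23 of 26 alternatives, with an adjusted p of up to 0.27 and log2 differences from 0.67 to 1.22. The largest was that without mutant replicate 4, which passed (limma adjusted p = 0.0071). Its sequence is shared with the pseudogene Psmb5-ps and with Gm3375 over 50.0% of windows, and its exons overlap Mir686.

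The other catalytic genes showed smaller estimates. Psmb6 had 56.1, 54.9, 49.2 and 39.4 RPKM in the mutants, 30.8, 35.9, 43.5 and 36.5 RPKM in the Cre controls, and 62.7 and 32.7 RPKM in the F/- controls. Psmb7 had 53.9, 89.7, 67.7 and 60.0 RPKM in the mutants, 50.7, 59.5, 54.8 and 56.5 RPKM in the Cre controls, and 76.4 and 40.6 RPKM in the F/- controls. For both genes F/- control replicate 1 lay above every Cre control. F/- control replicate 2 lay below all Cre controls for Psmb7 and among them for Psmb6, and the groups overlapped. The log2 differences against all controls were 0.33 ± 0.18 for Psmb6 (limma adjusted p = 0.34) and 0.26 ± 0.17 for Psmb7 (limma adjusted p = 0.43). For Psmb4 and Psmb1, which carry no catalytic site, they were 0.08 ± 0.17 and 0.10 ± 0.18.

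Psmb3, the lowest gene of the beta ring, separated the control genotypes. It had 4.71, 4.11, 4.69 and 3.57 RPKM in the mutants, 2.52, 3.43, 3.44 and 3.43 RPKM in the Cre controls, and 8.60 and 7.55 RPKM in the F/- controls. The mutants lay between the control groups and overlapped neither. The log2 difference was 0.37 ± 0.21 against the Cre controls (limma adjusted p = 0.39) and -0.85 ± 0.26 against the F/- controls (limma adjusted p = 0.085). It shares 55.8% of its windows with 7 genes elsewhere.

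In the alpha ring, Psma7 had the smallest p, with a mean of 159 ± 32.3 RPKM in the mutants, 126 ± 16.8 RPKM in the Cre controls and 126 ± 11 RPKM in the F/- controls. Mutant replicate 4, at 119 RPKM, lay within the range of the controls. The log2 difference against all controls was 0.32 ± 0.13 (limma adjusted p = 0.18). Of the other tested alpha genes, Psma2 and Psma6 had estimates above 0, and Psma1, Psma4 and Psma5 had estimates below 0, down to -0.28 for Psma1.

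**Figure D4:**
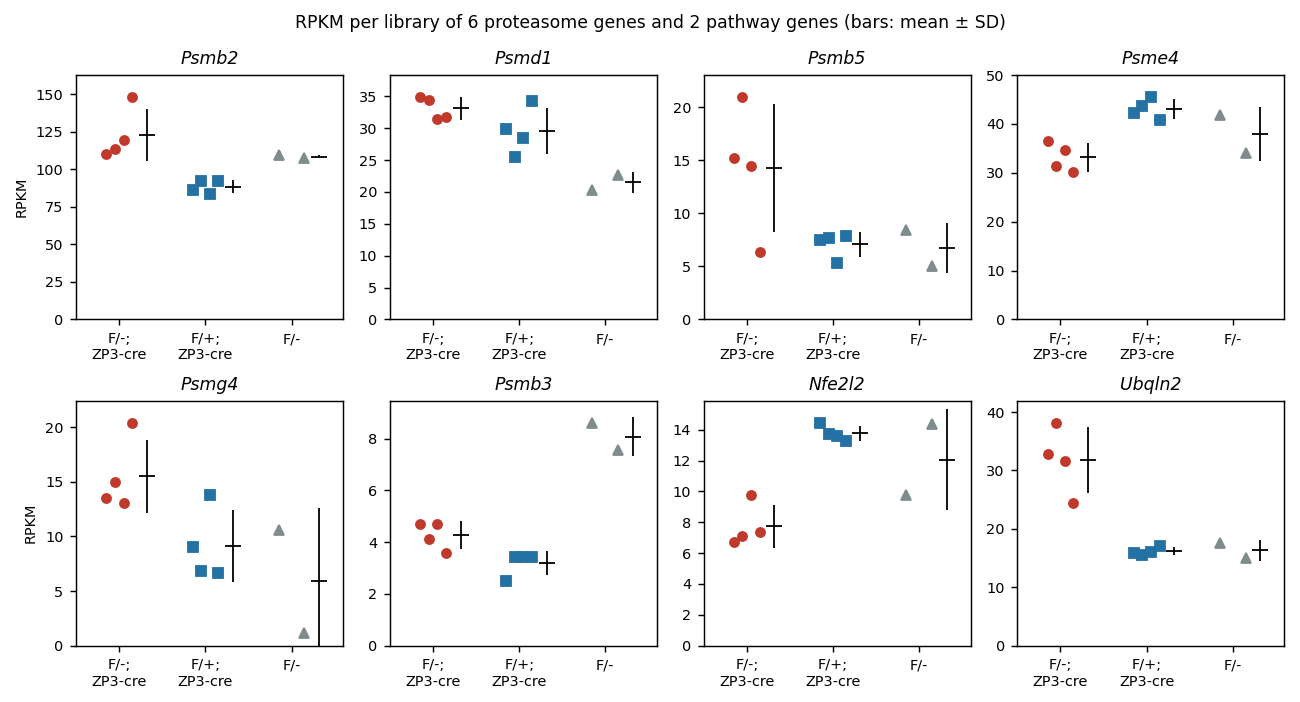
RPKM in each library of Psmb2, Psmd1, Psmb5, Psme4, Psmg4, Psmb3, Nfe2l2 and Ubqln2 (vertical axes start at 0), with the mean and SD of each group beside its points. Mutant replicate 4 is the lowest mutant for Psmb5, and the 2 F/- libraries differ widely for Psmg4.

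In the base, estimates of individual ATPases pointed both ways. Psmc5 had 82.1, 78.6, 87.5 and 104 RPKM in the mutants, 66.0, 71.1, 76.1 and 69.6 RPKM in the Cre controls, and 59.7 and 81.6 RPKM in the F/- controls. All mutants exceeded the Cre controls, and F/- control replicate 2 lay above mutant replicate 2. The log2 difference against all controls was 0.31 ± 0.11 (limma adjusted p = 0.14). For Psmc2 and Psmc1 it was 0.07 ± 0.18 and -0.17 ± 0.14. For Psmc4 it was 0.35 ± 0.14 (limma adjusted p = 0.18), and for Psmc6 -0.36 ± 0.17 (limma adjusted p = 0.25). Psmc3, the lowest ATPase gene, ranged from 8.82 to 29.5 RPKM in the mutants, from 9.44 to 17.1 RPKM in the Cre controls, and stood at 23.0 and 13.7 RPKM in the F/- controls.

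Psmd1 (chr1:86064387-86139151, plus strand, GRCm38), the scaffold subunit Rpn2, had 34.9, 34.4, 31.5 and 31.7 RPKM in the mutants. It had 29.8, 25.5, 28.5 and 34.3 RPKM in the Cre controls, and 20.4 and 22.6 RPKM in the F/- controls. The mutants exceeded both F/- libraries but overlapped Cre control replicate 4. The log2 difference was 0.61 ± 0.15 (SE) against the F/- controls (limma adjusted p = 0.039), 0.17 ± 0.12 against the Cre controls (limma adjusted p = 0.50) and 0.32 ± 0.15 against all controls (limma adjusted p = 0.24). The Cre controls minus the F/- controls differed by 0.44 ± 0.15 (limma adjusted p = 0.22), with every Cre control above both F/- libraries. The call against the F/- controls was lost in 16 of 25 alternatives, with an adjusted p of up to 0.52. It was lost under median centring, quantile normalization, equal sums, summed rows, array weights, the replicate block and without the trend. It was also lost when any 1 library other than mutant replicate 4 was left out. With 1 library left out the log2 difference ran from 0.539 to 0.687. The exons of Psmd1 overlap Gm21972 on the same strand and Htr2b on the other, and reads of these genes cannot be told apart there.

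Psmd4 had 60.9, 67.8, 57.3 and 65.7 RPKM in the mutants, 48.6, 48.6, 56.0 and 54.9 RPKM in the Cre controls, and 61.9 and 39.4 RPKM in the F/- controls. All mutants lay above the Cre controls, F/- control replicate 1 lay among the mutants, and replicate 2 lay below every other library. The log2 difference against all controls was 0.30 ± 0.13 (limma adjusted p = 0.20). Psmd2, the lowest gene of this group, ranged from 8.83 to 11.3 RPKM in the mutants, from 10.1 to 14 RPKM in the Cre controls, and stood at 14.9 and 10.1 RPKM in the F/- controls.

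No lid gene reached an unadjusted p of 0.05 against all controls, and the median of the 8 was 0.147. Psmd12, with the smallest p and the highest level of the lid, had 83.2, 71.4, 84.2 and 81.3 RPKM in the mutants, 75.9, 71.4, 69.2 and 73.1 RPKM in the Cre controls, and 61.5 and 68.9 RPKM in the F/- controls. Its log2 difference was 0.19 ± 0.10 (limma adjusted p = 0.29). Psmd13, the lowest lid gene, had 1.44, 2.36, 3.68 and 1.1 RPKM in the mutants, 1.07, 0.682, 1.32 and 1.07 RPKM in the Cre controls, and 2.81 and 0.150 RPKM in the F/- controls. All groups overlapped, and F/- control replicate 2 was the lowest library. The other lid genes had log2 differences from -0.31 (Psmd3) to 0.42 (Psmd14), with Psmd6, Psmd8, Psmd7 and Psmd11 between them. Psmd14 had 13.5, 10.03, 16.5 and 9.80 RPKM in the mutants, 9.31, 10.6, 10.9 and 11.3 RPKM in the Cre controls, and 5.93 and 6.97 RPKM in the F/- controls. Mutants and Cre controls overlapped and both lay above the F/- controls, from which the mutants differed by 0.87 ± 0.24 (limma adjusted p = 0.057).

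Among the activators, the 2 abundant genes differed in their estimates. Psme4 had 36.6, 31.5, 34.7 and 30.1 RPKM in the mutants, 42.3, 43.7, 45.6 and 40.9 RPKM in the Cre controls, and 41.8 and 34 RPKM in the F/- controls. All mutants lay below the Cre controls, and F/- control replicate 2 lay among the mutants. The log2 difference was -0.37 ± 0.12 against the Cre controls (limma adjusted p = 0.092) and -0.31 ± 0.12 against all controls (limma adjusted p = 0.15). Against the Cre controls the limma adjusted p was 0.032 with median centring, 0.033 with quantile normalization and 0.041 with equal sums, and 0.044 in the 8 libraries with ZP3-cre alone. Against all controls Psme4 stayed uncalled in 25 of 26 alternatives, with an adjusted p of up to 0.27. The 1 that passed was the fit without F/- control replicate 2 (limma adjusted p = 0.044). Psme3 had 112, 109, 107 and 146 RPKM in the mutants, 113, 117, 133 and 125 RPKM in the Cre controls, and 120 and 128 RPKM in the F/- controls, and its log2 difference against all controls was -0.06 ± 0.10. For Psme4 and Psme3 the difference between their estimates was not tested. The low activators Psme2 and Psme2b had estimates of 0.65 ± 0.34 and 0.65 ± 0.42, and for each gene 1 F/- library was the lowest of all and the other was among the highest. Psmf1 had 38.1, 33.5, 39.1 and 39.5 RPKM in the mutants, 31.3, 34.6, 30.6 and 34.1 RPKM in the Cre controls, and 40.0 and 32.1 RPKM in the F/- controls, with overlap of all groups and a log2 difference of 0.15 ± 0.11 (limma adjusted p = 0.50).

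Of the chaperones, Psmg4, which helps the alpha ring to form, had the largest estimate of all members. It had 13.5, 15, 13.1 and 20.4 RPKM in the mutants, 9.02, 6.88, 13.8 and 6.68 RPKM in the Cre controls, and 10.6 and 1.15 RPKM in the F/- controls. Cre control replicate 3 lay among the mutants, and F/- control replicate 2 stood far below all other libraries. The log2 difference against all controls was 1.14 ± 0.46 (limma adjusted p = 0.18), and against the Cre controls 0.77 ± 0.46 (limma adjusted p = 0.40). Psmd9 had 16.5, 26.4, 24.2 and 26.5 RPKM in the mutants, 15.2, 16.6, 22.3 and 12.1 RPKM in the Cre controls, and 24.3 and 10.3 RPKM in the F/- controls, with overlapping groups and a log2 difference of 0.50 ± 0.23 (limma adjusted p = 0.25). For Psmd10 and Psmd5, the other chaperones of base assembly, it was 0.13 ± 0.19 and -0.05 ± 0.20. Psmg1 and Psmg3 varied most among the mutants. Psmg1 had 28.2, 17.4, 19.9 and 6.70 RPKM in the mutants, 19.3, 19.4, 22.8 and 19.1 RPKM in the Cre controls, and 10.9 and 17.0 RPKM in the F/- controls. Psmg3 had 4.38, 0.403, 3.60 and 0.488 RPKM in the mutants, 2.83, 1.92, 3.14 and 3.30 RPKM in the Cre controls, and 5.94 and 1.87 RPKM in the F/- controls. For Psmg3, mutant replicates 2 and 4 lay below every other library. The log2 differences against all controls were -0.13 ± 0.31 for Psmg1 and -0.75 ± 0.49 for Psmg3 (limma adjusted p = 0.86 and 0.43).

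Psmc3ip, which is no proteasome gene, had 22, 13.4, 15.4 and 23.2 RPKM in the mutants, 27.3, 26.0, 23.0 and 22.7 RPKM in the Cre controls, and 21.2 and 16.7 RPKM in the F/- controls. Groups overlapped, and its log2 difference against all controls was -0.31 ± 0.18 (limma adjusted p = 0.38).

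The tested members had a lower median spread between replicates than all tested genes, by little in the Cre controls. The median level of the members was also higher, at 18.6 RPKM over all 50 beside 6.06 RPKM over all tested genes. Spread was not compared among genes of like level. The median SD of log2(RPKM + 0.5) within a group was 0.267 over the tested members and 0.388 over all tested genes in the mutants, 0.179 and 0.191 in the Cre controls, and 0.242 and 0.385 in the F/- controls. Mutant spread was widest for Psmg3 (SD 1.30), Psmg1 (SD 0.851) and Psmb5 (SD 0.705) and narrowest for Psmd1 (SD 0.0762). Between the 2 F/- libraries, 7 of 42 members were lower by more than 1 on the log2 scale in replicate 2 (16.7%, beside 16.5% of all tested genes) and 0 were higher by more than 1 (0%, beside 10.3% of all tested genes). Among them were Psmg4, with 10.6 RPKM in replicate 1 and 1.15 RPKM in replicate 2, and Psmd7, with 32.7 and 4.82 RPKM.

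**Figure D5:**
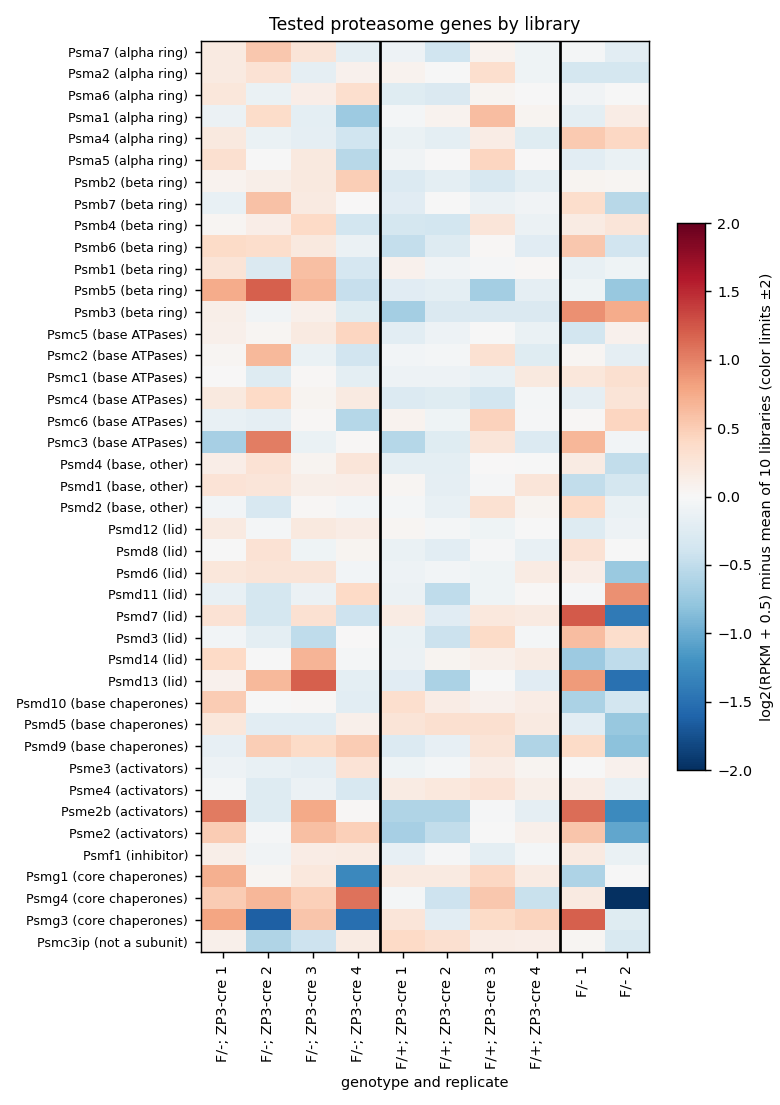
log2(RPKM + 0.5) of the 42 tested genes in each library minus the gene's mean over 10 libraries (colour), with genes in rows by role and libraries in columns, mutants at the left. The deepest departures are in F/- control replicate 2 (Psmg4, Psmd7, Psmd13) and in mutant replicates 2 and 4 (Psmg3).

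Between the control genotypes, Cre controls against F/- controls, 0 of 42 members were called by limma, where 0.0706% of all tested genes were. At an unadjusted p under 0.05 there were 10 members (23.8%), beside 14% of all tested genes, with 5 higher (background 8.31%) and 5 lower (background 5.66%) in the Cre controls. Groups did not overlap for 15 members (35.7%), beside 29.6% of all tested genes, with 10 higher (background 18.3%) and 5 lower (background 11.3%). The estimate was above 0 in 21 of 42 members (50.0%) and in 56.2% of all tested genes. The smallest p belonged to Psmb3, with a log2 difference of -1.22 ± 0.26 (limma adjusted p = 0.099). All 3 base assembly chaperones had estimates above 0, but that of Psmd9 was small beside its error (0.02 ± 0.32, limma adjusted p = 0.99). Psmd5 had 35.8, 37.2, 37.4 and 33.9 RPKM in the Cre controls, against 25.6 and 17.5 RPKM in the F/- controls, with a log2 difference of 0.75 ± 0.18 (limma adjusted p = 0.12). Psmd10, with 40.3, 35.3, 33.8 and 35.4 RPKM in the Cre controls, against 20.4 and 24.5 RPKM in the F/- controls, had a log2 difference of 0.68 ± 0.19 (limma adjusted p = 0.15). The control genotypes differ in Cre and in the null allele together, and with 2 F/- libraries these cannot be told apart.

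Genes that act with the proteasome were read from 4 lists. Of 13 proteasome genes outside the symbol pattern, such as the receptor Adrm1, the maturation factor Pomp and the nuclear import factor Akirin2, 0 were called against all controls by limma, beside 5.33% of all tested genes. At an unadjusted p under 0.05 there were 2 (15.4%, beside 19.8% of all tested genes). The median log2 difference was 0.0858, beside 0.0251 over all tested genes. The smallest p in this list was that of Zfand2a, a stress-inducible proteasome partner, with a mean of 62.7 ± 6.51 RPKM in the mutants, 47.6 ± 3.23 RPKM in the Cre controls and 56.3 ± 1.32 RPKM in the F/- controls and a log2 difference of 0.31 ± 0.11 (limma adjusted p = 0.14).

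Of 11 tested regulators of proteasome gene transcription, 1 was called (9.09%, beside 5.33% of all tested genes), and it was lower. Nfe2l2, which encodes the oxidative stress factor NRF2, had 6.70, 7.14, 9.79 and 7.36 RPKM in the mutants. It had 14.4, 13.7, 13.6 and 13.3 RPKM in the Cre controls, and 9.76 and 14.4 RPKM in the F/- controls. The mutants lay below the Cre controls, and mutant replicate 3 was level with F/- control replicate 1. It fell by 0.73 ± 0.17 (SE) on the log2 scale against all controls (limma adjusted p = 0.023). It passed against the Cre controls alone (limma adjusted p = 0.024) and did not pass against the F/- controls alone (limma adjusted p = 0.14). The call against all controls was lost in 9 of 26 alternatives, with an adjusted p of up to 0.10. The alternatives that lost it included the fits without any 1 of mutant replicates 1 (0.067), 2 (0.051) and 4 (0.055) or Cre control replicates 1 (0.066), 2 (0.062) and 4 (0.058). Nfe2l1, the factor that governs recovery of proteasome genes, averaged 45.9 ± 5.03 RPKM in the mutants, 57.1 ± 1.73 RPKM in the Cre controls and 51.0 ± 5.76 RPKM in the F/- controls, with a log2 difference of -0.26 ± 0.11 (limma adjusted p = 0.19).

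Of 16 genes for ubiquitin, its activation, shuttles and extraction, 1 was called (6.25%, beside 5.33% of all tested genes), and it was higher. Ubqln2, a shuttle that carries ubiquitinated proteins to the proteasome, had 32.8, 38.1, 31.6 and 24.4 RPKM in the mutants. It had 15.9, 15.5, 16.1 and 17.1 RPKM in the Cre controls, and 17.6 and 15 RPKM in the F/- controls. All mutants lay above all controls, and Ubqln2 rose by 0.93 ± 0.14 (SE) on the log2 scale (limma adjusted p = 0.0011). It also passed against the Cre controls and the F/- controls alone, at limma adjusted p of 0.0031 and 0.015. Its relatives Ubqln1 and Ubqln4 were not called.

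Of 10 antigen processing genes linked to interferon, 3 had enough signal to be tested and 0 were called against all controls by limma, beside 5.33% of all tested genes. At an unadjusted p under 0.05 there was 1 of the 3 (33.3%, beside 19.8% of all tested genes). B2m, the light chain of class I molecules, had 9.85, 6.57, 9.05 and 10.02 RPKM in the mutants. It had 20.3, 23.6, 19.3 and 19.6 RPKM in the Cre controls, and 12.6 and 8.63 RPKM in the F/- controls. It was lower against the Cre controls (log2 difference -1.19 ± 0.18, limma adjusted p = 0.0024) and overlapped the F/- controls (-0.24 ± 0.22, limma adjusted p = 0.57). B2m was the only 1 of the 3 called against the Cre controls, beside 4.89% of all tested genes. There H2-K1 and Irf1 had estimates above 0 (0.86 ± 0.31 and 0.27 ± 0.15, limma adjusted p = 0.15 and 0.39). For B2m the Cre controls minus the F/- controls differed by 0.95 ± 0.22 (limma adjusted p = 0.11).

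Oocyte markers were abundant in every library, except for Figla, with a mean of 10.2 RPKM and 1.46 RPKM in mutant replicate 4. The summed level of the 10 genes on the list was 5731 to 5791 RPKM in the mutants, 5677 to 7318 RPKM in the Cre controls, and 6489 and 7481 RPKM in the F/- controls. The sum over 12 granulosa and cumulus markers was 78.2 to 111 RPKM in the mutants, 91.4 to 104 RPKM in the Cre controls, and 76.9 and 78.5 RPKM in the F/- controls. Of the 12, 7 were below 1 RPKM on average, and the highest were Serpine2, Nr5a2 and Cyp19a1, with means of 65.6, 12.9 and 7.23 RPKM. The sum over 14 blood, immune and endothelial markers was 22.5 to 36.2 RPKM in the mutants, 31.5 to 41.3 RPKM in the Cre controls, and 45.3 and 46.0 RPKM in the F/- controls. Most of it came from Pecam1 and C1qb, with means of 17.6 and 13.8 RPKM, while Cd52, Hbb-bs, Hba-a1 and Cdh5 were at 0 in every library. Of these lists 0 genes were called against all controls by limma, beside 5.33% of all tested genes. At an unadjusted p under 0.05 there were 3, beside 19.8% of all tested genes. These were Zp2 (1 of 10 tested oocyte markers) and Pecam1 (1 of 5 tested blood, immune and endothelial markers), below the controls, and Ptgs2 (1 of 7 tested granulosa and cumulus markers), above them. Against the F/- controls alone 1 of 10 oocyte markers was called, Zp1, which was lower (limma adjusted p = 0.019). Its mean was 349 RPKM in the mutants, 368 RPKM in the Cre controls and 478 RPKM in the F/- controls. Against the Cre controls its log2 difference was -0.08 ± 0.08 (limma adjusted p = 0.65). The Cre controls minus the F/- controls differed by -0.38 ± 0.09 (limma adjusted p = 0.12). At an unadjusted p under 0.05, 5 of 10 oocyte markers were lower in the mutants against the F/- controls, beside 8.57% of all tested genes. The markers' part in the values of the proteasome genes was not tested.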

How the data were processed

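RNA-seq of 10 libraries was used. The authors deposited RPKM values in 1 table of 34768 RefSeq rows, with 1 column per library. Per the submitters' processing notes, bcl2fastq 1.8.3, STAR and the build mm10 were used. The counting tool and its handling of reads with several matches: not given in the sources used here. Per the labels' protocols, RNA was taken with an RNeasy Micro kit, 1.2 ng went into single-primer isothermal amplification (NuGen Ovation) and 50 ng of the cDNA into an unstranded TruSeq DNA preparation. Amplifying so little RNA can add spread and favour some transcripts by length or base composition.

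From these values log2(RPKM + 0.5) was computed and fitted with limma 3.58.1 in R 4.3.3 (empirical Bayes with trend) over the 11338 symbols with a mean of at least 0.5 RPKM, with Benjamini-Hochberg adjustment over all of them and a threshold of 0.05. Mutants against all controls was fitted with 2 levels, and the other comparisons with 3 groups that share 1 spread. Setdb1 was tested by exact permutation. The fits were tested on simulated data with known changes. Each library comes from a separate mouse and counted as 1 replicate. Read totals are estimates: with them 65.9% to 69.9% of low values came within 0.1 of a whole read. Such limits cover counting error only.

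The members and lists were chosen with earlier results of these data known. Genes named with all their values were the called members, the member of each class with the smallest p or with the highest or lowest level, the catalytic subunits, members near 0, and from each other list the called genes and the one with the smallest p. Psmg3, Nfe2l1, Psmd5, Psmc4 and Psmc6, among others, were named after their values were seen. Loci and shared windows came from GENCODE M21 and promoters from RefSeq. Protein sequences were not used here. Alternatives covered scaling, pseudocount, filter, choice of row, weights, threshold, a replicate block and leaving out each library.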

Additional observations from a re-analysis of the deposited data

Results flagged for a closer look

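The 4 libraries of a genotype were checked for each member, which gave 97 sets with any spread. In 13 of the 97 sets, 1 value stood apart from the other 3 by a gap larger than Dixon's 95% critical value (0.829 of the set's range). Chance alone flags about 1 set in 20. In 3 of the 13, 1 library had signal and the rest of its group was listed at 0: Psma8 in mutant replicate 1 (0.00964 RPKM), Psmb8 in Cre control replicate 1 (0.0532 RPKM) and Psmb9 in Cre control replicate 4 (0.198 RPKM). There the gap is the whole range for any value, so these 3 cannot be set against that rate.

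In the mutants, replicate 4 stood apart for Psmd6 (36.8 RPKM, the others 44.9 to 46.2) and for Psme3 (146 RPKM, the others 107 to 112). In the Cre controls, replicate 3 stood apart for Psma1 (30.4 RPKM, the others 19.1 to 20.8), Psma5 (16.1 RPKM, the others 11.1 to 11.8), Psmb5 (5.34 RPKM, the others 7.49 to 7.83) and Psmg1 (22.8 RPKM, the others 19.1 to 19.4). Cre control replicate 4 stood apart for Psmc1 (30.5 RPKM, the others 23.9 to 24.6) and Psmd6 (42.9 RPKM, the others 35.7 to 36.9). Cre control replicate 1 stood apart for Psmb3 (2.52 RPKM, the others 3.43 to 3.44) and replicate 2 for Psmd7 (11.7 RPKM, the others 15.4 to 16.0).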

How the results depend on the processing

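Calls of members moved with the settings. The direction of the estimate was followed for the called members, for the member of each tested class with the smallest p, and for Psmb5. It reversed in 0 of the alternatives for these. For the other members named in the text it was not followed. Against all controls, members called were 0, against 5 with array weights (Psmb2, Psmb5, Psmb6, Psmc5 and Psme2b), 2 at an adjusted p of 0.1, and 0 to 3 when a library was left out (1, Psmb5, without mutant replicate 4, and 3, Psmb2, Psmc4 and Psme4, without F/- control replicate 2). All genes called were 604, against 357 with no filter, 1388 with array weights, 979 at 0.1, 376 with the replicate block, 0 by exact permutation (2224 at an unadjusted p under 0.05) and 360 to 794 with a library left out. The core median, 0.155, was 0.321 with array weights. Against the Cre controls, members called were 1 (Psmb2), against 0 with no filter or without the trend, 5 with array weights, 2 at 0.1, 3 in the 8 libraries with ZP3-cre alone (chosen after seeing the data) and 0 to 3 with a library left out (0 without mutant replicate 3 or any Cre control, 2 without mutant replicate 4, 3 without either F/- control). Under median centring, quantile normalization and equal sums the count was 1 as well, but Psme4, lower in the mutants, was called in place of Psmb2. All genes called were 554, against 1396 with array weights, 913 at 0.1, 909 in the 8 libraries and 226 to 905 with a library left out. Against the F/- controls, members called were 1 (Psmd1), against 0 under median centring, quantile normalization, equal sums, summed rows, array weights and the replicate block, 2 with no filter, 6 at 0.1 and 0 to 8 with a library left out (8 without F/- control replicate 1, 3 without mutant replicate 4). Without the trend 1 was called, Psmb3, lower in the mutants, in place of Psmd1. All genes called were 549, against 279 with no filter, 52 with array weights, 1070 at 0.1, 223 with the block and 277 to 1467 with a library left out. For Cre controls against F/- controls, members called were 0, against 1 with no filter, 1 at 0.1 and 0 to 5 with a library left out (5 without F/- control replicate 1). All genes called were 8, against 25 at a pseudocount of 0.1 and at a mean of 2 RPKM, 17 under quantile normalization, 13 with equal sums, 27 with no filter, 0 with array weights, 62 at 0.1, 1 with the block and 0 to 840 with a library left out. Class medians with a library left out ran from 0.12 to 0.236 (core), 0.0397 to 0.183 (base and lid) and -0.00979 to 0.227 (others) against all controls. Against the Cre controls they ran from 0.172 to 0.317, 0.134 to 0.191 and -0.0735 to 0.088. Against the F/- controls they ran from 0.118 to 0.232, -0.0321 to 0.182 and -0.0799 to 0.457, and between the control groups from -0.244 to 0.081, -0.159 to 0.0709 and -0.27 to 0.548. The causes were not tested. Same-numbered libraries did not deviate together over all tested genes (correlations of -0.0461 to 0.0308). This check cannot decide whether the numbers pair mice. The deviations of the 2 F/- libraries from their mean also mirror each other and add little to it. Leaving out an F/- control leaves 1 library that is assumed to vary like the other groups. Ubqln2 lost its call in 1 of 26 alternatives, by exact permutation (adjusted p = 0.075), and B2m against the Cre controls in 0 of 26. Depth limits Psmb8 and Psma8, whose nonzero values rest on few reads.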
